A study of Mus musculus with 8 samples.

Results

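The major histocompatibility complex (MHC) class II genes described here were H2-Aa, H2-Ab1, H2-Eb1, Cd74 and Ciita. They were 5 listed genes of the 17001 measured in both count tables, listed by name, and they were followed over all 29631 cells of 8 droplet-based single-cell RNA-seq libraries. The study set libraries of gray matter (GM, frontal cortex) beside libraries of white matter (WM, pieces of the corpus callosum, the optic tract and the medial lemniscus) from 24-month-old mice. It asked how the cells of aged white matter differ between mice that have T and B cells and Rag1-/- mice, which cannot rearrange antigen receptor genes and so make neither. There were 2 wild-type GM, 2 wild-type WM, 1 Rag1-/- GM and 3 Rag1-/- WM libraries. The wild-type mice were C57BL/6 in the labels and C57BL/6J in the methods. The labels give the Rag1-/- strain as NOD.129S7(B6)-Rag-1tm1Mom/J and the methods give a B6.129S7 line on C57BL/6J, so it could not be settled which MHC haplotype these mice carry. No mouse received a further treatment or allele. Each wild-type batch gave 1 GM and 1 WM library from the same pooled mice, Rag1-/- GM 1 and WM 1 came from the same pooled mice, and Rag1-/- WM 2 and WM 3 came from 1 mouse each. Genotype coincided with the experiment, the strain, the Cell Ranger version and the gene list, so these cannot be told apart, and p-values measure only the spread between these few libraries.

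MHC class II molecules carry peptides from proteins that a cell has taken up, and show them to CD4+ T cells. H2-Aa encodes the alpha chain and H2-Ab1 the beta chain of the I-A molecule, and H2-Eb1 encodes the beta chain of the I-E molecule, whose alpha chain gene is not expressed in some strains, C57BL/6 among them. Cd74, the invariant chain, holds new class II molecules together and guides them to the endosome. Ciita is the class II transactivator, a coactivator that does not bind DNA itself and on which transcription of the other 4 genes depends. In the brain, macrophages of the meninges, perivascular spaces and choroid plexus, called border macrophages, include cells that carry class II constitutively, whereas resting microglia carry little and raise it in aging and disease.

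In GRCm38 (GENCODE vM21) the 3 chain genes lie close together on chromosome 17. H2-Ab1 (ENSMUSG00000073421) covers 34257689 to 34269419 on the plus strand, H2-Aa (ENSMUSG00000036594) covers 34282744 to 34287823 on the minus strand, and H2-Eb1 (ENSMUSG00000060586) covers 34305867 to 34316674 on the plus strand. Ciita (ENSMUSG00000022504) lies on chromosome 16 from 10480059 to 10528418, plus strand. The promoters are shown because class II transcription is known to run through an X box and a Y box just upstream of each gene, the docking sites of the complex that recruits the Ciita protein. Of the 5 members, the windows of 2 are shown, taken from the RefSeq promoter table of GRCm38.p6. They are printed 5′ to 3′ on the strand of the gene, as the 250 bases before the start site. H2-Ab1 and Ciita had no window in that table, and Cd74 was left out of the search. The H2-Aa window is chr17:34287824-34288073 (minus strand) and the H2-Eb1 window is chr17:34305617-34305866 (plus strand). Capitals mark matches to 3 sets of letters searched on both strands: the Y box CTGATTGG, the X box AGCAACNGA and the cyclic AMP response element TGACGTCA.
H2-Aa: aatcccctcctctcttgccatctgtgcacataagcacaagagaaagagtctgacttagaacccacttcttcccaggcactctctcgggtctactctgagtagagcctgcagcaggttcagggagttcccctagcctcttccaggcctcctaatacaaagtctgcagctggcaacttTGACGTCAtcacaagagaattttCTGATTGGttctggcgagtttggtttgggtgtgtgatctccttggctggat
H2-Eb1: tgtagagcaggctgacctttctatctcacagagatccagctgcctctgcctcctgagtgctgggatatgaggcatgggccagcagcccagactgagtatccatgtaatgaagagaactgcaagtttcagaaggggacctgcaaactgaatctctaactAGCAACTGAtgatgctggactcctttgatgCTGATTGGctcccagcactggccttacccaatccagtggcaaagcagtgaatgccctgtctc
Both windows held the Y box letters, 43 bases from the start site in H2-Aa and 54 in H2-Eb1. H2-Eb1 held the X box letters 83 bases from its start, and H2-Aa held the cyclic AMP response element at 66 bases. Of 32851 windows of this length, 1258 (3.83%) held the Y box letters, 350 (1.07%) those of the X box and 508 (1.55%) the response element. These are matches of letters, and no binding was measured.

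Cells other than oligodendrocytes were placed in classes by marker genes that include none of the 5 members. Border macrophages had at least 5 unique molecular identifiers (UMIs, counted transcript molecules) of Mrc1, Pf4 and Ms4a7 together, and microglia-like cells passed a gate on microglial markers, no gate of another class (the oligodendrocyte gate not counted) and carried no oligodendrocyte name. Oligodendrocytes were the cells that the authors had named so, 15382 of which were found in the tables, 1 of them in the border gate. The libraries held 584 to 7631 cells with a median of 6435 to 10375 UMIs, and 92 of 29539 barcodes occurred in more than 1 library. T-cell-gated cells numbered 254 in the wild-type and 26 in the Rag1-/- libraries. Rag1 itself had 27 UMIs in 8726 wild-type cells and 301 in 20905 Rag1-/- cells. Such 3′ tags can lie outside the altered part of the gene, so they do not check the label. The border gate took 363 cells (1.23%), with 13, 52, 13 and 38 in wild-type GM 1, GM 2, WM 1 and WM 2 and 72, 95, 35 and 45 in Rag1-/- GM 1 and WM 1, 2 and 3. There were 8746 microglia-like cells and 15381 oligodendrocytes, and 94.0% of the microglia-like cells in Rag1-/- libraries carried one of the authors' microglia names.

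The border label was checked on markers that the gate did not use. Cd163, a haptoglobin-haemoglobin receptor of tissue macrophages, was detected in 30.9% of border cells against 0.0457% of microglia-like cells. F13a1 was found in 59.8% against 0.217%, and Lyve1 in 16.8% against 0.0343%. Folr2, Cbr2 and Dab2 were also found more often in border cells. Stab1 differed less (63.4% against 43.9%), and Maf went the other way in its share of cells (82.1% against 87.3%) but not in its level, which was higher in border cells in 7 of 8 libraries (median 970.3 against 720.4 CPM, UMIs scaled to a common total as counts-per-million). Microglial markers were also present, with P2ry12 in 56.5% and Tmem119 in 29.8% of border cells, each at a level (CPM) below that of microglia-like cells in 8 of 8 libraries, and 240 of the 363 also passed the microglia gate. Of the border cells, 134 passed the oligodendrocyte gate, 45 the dendritic gate and 30 the monocyte gate. Doublets were not called, and the part of mixed droplets in the values was not tested. At the threshold of the gate, 29 cells had exactly 5 UMIs of the 3 genes and 31 cells had 4.

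Most class II UMIs came from few cells. Counting H2-Aa, H2-Ab1 and H2-Eb1 together as chain UMIs, 277 cells with at least 10 of them, called class II-high here, held 93.2% of the 44070 chain UMIs and 77.8% of the 45515 Cd74 UMIs. Among these cells were 107 border macrophages, 88 microglia-like cells, 9 monocytes, 2 dendritic cells and 71 cells of no class. The 363 border macrophages alone held 41.3% of all chain UMIs and 32.1% of Cd74. Microglia-like cells, 29.5% of the cells, held 19.6% and 32.7%. Oligodendrocytes, 51.9% of the cells, held 0.946% and 0.622%.

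Within border macrophages the chain UMIs per cell ranged widely. There were 179 cells (49.3%) with none, 68 with 1 to 4, 9 with 5 to 9, 10 with 10 to 19 and 97 with 20 or more, and the class II-high cells had a median of 125 and a maximum of 724. Microglia-like cells were mostly at the low end, with 7415 of 8746 (84.8%) at none and 88 (1.01%) class II-high, whose median was 21 and maximum 701. None of the 15381 named oligodendrocytes was class II-high: 14991 had no chain UMI, and the other 390 had at most 3. Marker genes of oligodendrocytes were present in other class II-high cells, since 124 of the 277 passed the oligodendrocyte gate, and 17 of the 71 of no class passed that gate alone.

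**Figure D1:**
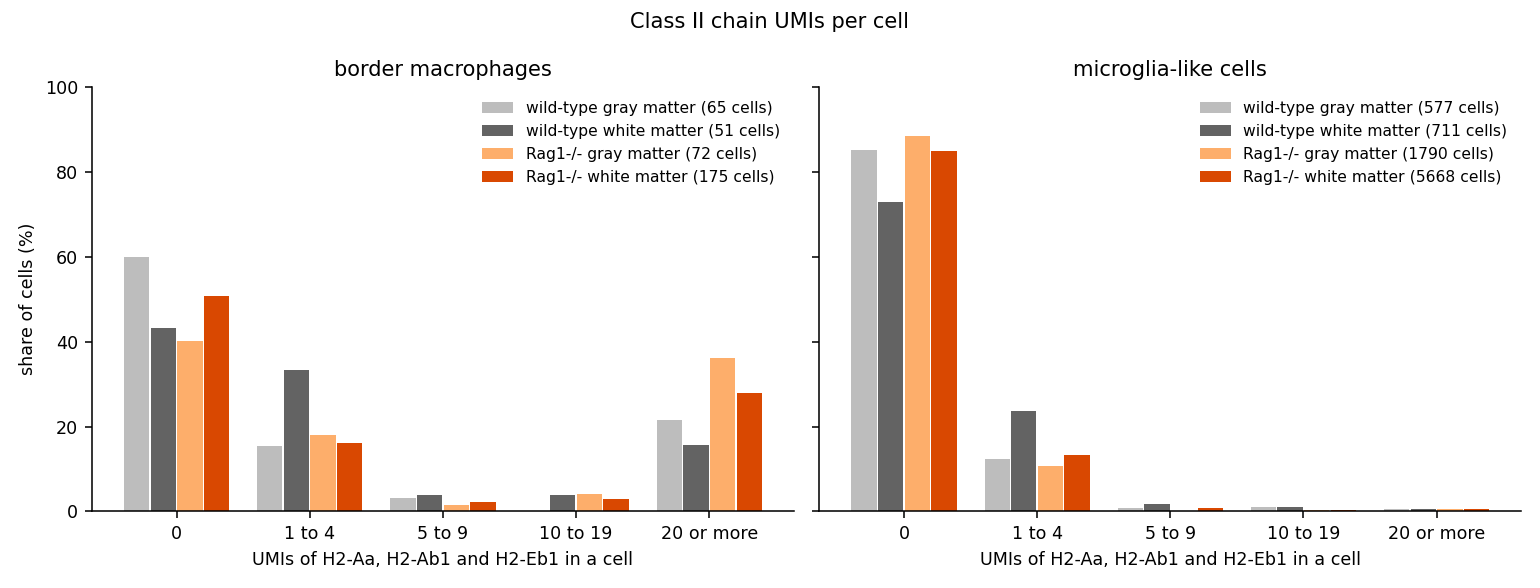
Share of cells (percent, vertical axis) by the number of H2-Aa, H2-Ab1 and H2-Eb1 UMIs in the cell (horizontal axis). Border macrophages are on the left and microglia-like cells on the right, with separate bars for each tissue and genotype. Over all groups together, 49.3% of border macrophages have none, 97 of 363 have 20 or more and the others lie in between. Of all microglia-like cells 84.8% have none.

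All 3 chain genes were found together in 117 border macrophages, each of which also had Cd74, while 17 cells had exactly 2 chain genes and 50 had 1. Ciita was found in 50 border macrophages, of which 46 had all 3 chain genes and 45 were class II-high. In microglia-like cells 117 had all 3 chain genes, 116 of them with Cd74, and 1090 had exactly 1. No oligodendrocyte had all 3, 16 had 2 and 374 had 1. These counts depend on depth, since a gene is easily missed in a cell where its level is low.

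Border macrophages carried more of the 3 chain genes and Cd74 than microglia-like cells in every library, and more Ciita in 7 of 8, Ciita being at 0 in both classes in wild-type WM 1. In border macrophages the H2-Aa level was 2145 and 854 CPM (the total here being all UMIs of the class in that library) in wild-type GM 1 and 2, and 1587 and 690.2 in wild-type WM 1 and 2. In the Rag1-/- libraries it was 5372 in GM 1 and 2889, 3942 and 1235 in WM 1, 2 and 3. The Rag1-/- GM library was the highest, and wild-type WM 2 the lowest. In microglia-like cells H2-Aa was at 96.5, 21.1, 82.1 and 22.1 CPM in the wild-type libraries in the same order, and at 92.7, 29.9, 43.6 and 22.8 in the Rag1-/- libraries. The lowest border value was above the highest microglia-like value.

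H2-Ab1, the partner chain of H2-Aa, lay in border macrophages at 1864 and 792 CPM in wild-type GM, 1394 and 618 in wild-type WM, 4771 in Rag1-/- GM, and 2477, 4504 and 1347 in Rag1-/- WM. Its microglia-like level was 30.2 to 119.8 CPM over the 8 libraries. The ranges of the 2 classes did not overlap. For how many of the genes tested the ranges did not overlap was not counted. By the looser rule of a higher level in border macrophages within every library, 3.47% of the genes tested were called. H2-Eb1 was at 1963 and 733 CPM in wild-type GM border macrophages, 1217 and 472 in wild-type WM, 5024 in Rag1-/- GM, and 2801, 3929 and 1048 in Rag1-/- WM. Its microglia-like level was 6.10 to 111 CPM.

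Cd74 (ENSMUSG00000024610, chromosome 18, 60803848 to 60812652, plus strand, GRCm38) was the member with the most UMIs. In border macrophages it was at 4900.0 and 1943 CPM in wild-type GM, 3998 and 1224 in wild-type WM, 11336 in Rag1-/- GM, and 6918, 10545 and 2982 in Rag1-/- WM. In microglia-like cells it was at 317 and 72.9, 459.6 and 201, 231, and 262, 311 and 212 CPM in the same order. Here too the classes did not overlap. Ciita, the coactivator, was the least abundant, at 16.5 and 20.4 CPM in wild-type GM border macrophages, 0 and 12.3 in wild-type WM, 82.5 in Rag1-/- GM, and 39.4, 58.8 and 71.7 in Rag1-/- WM, from 0 to 31 UMIs a library.

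**Figure D2:**
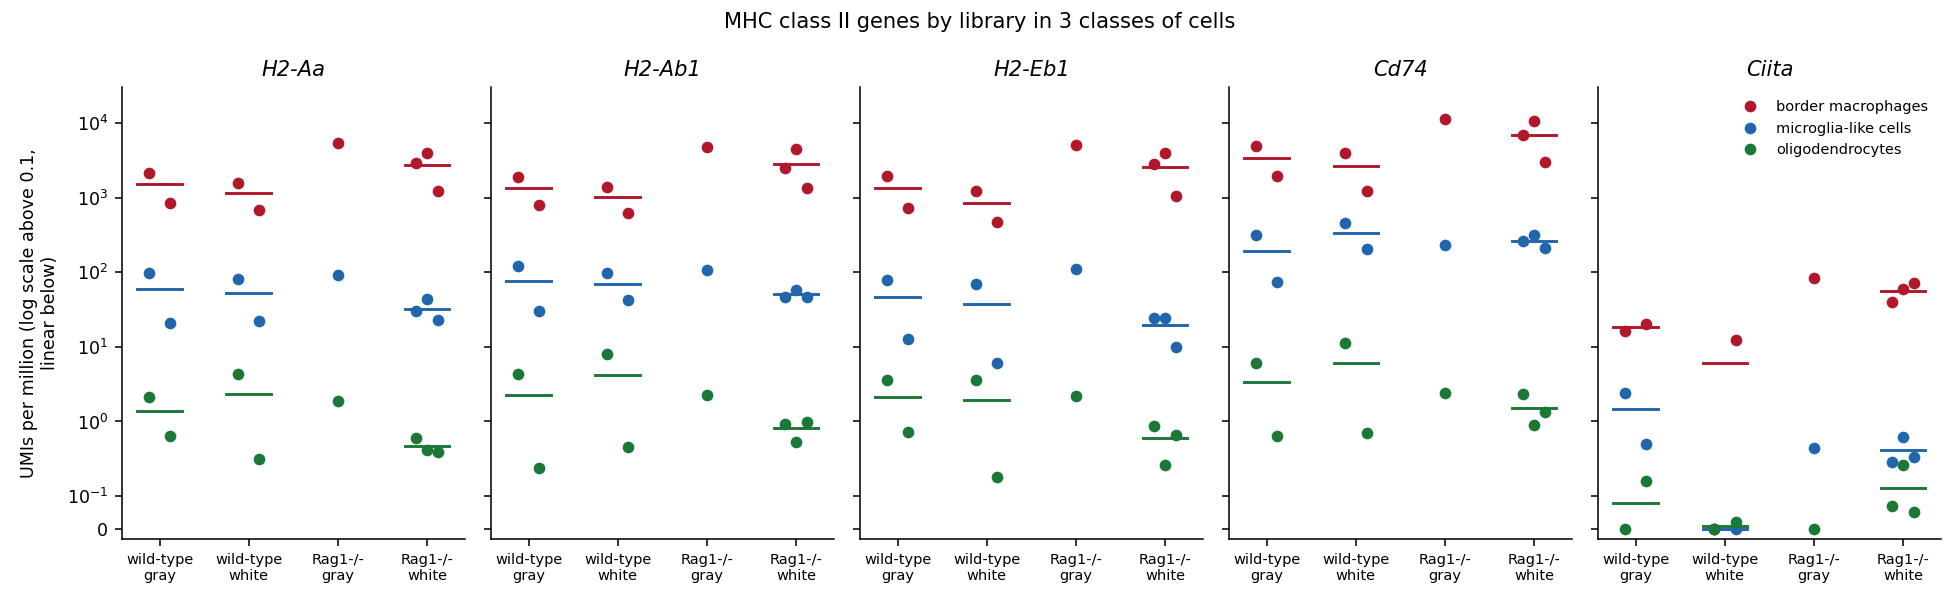
Level of each member (CPM, log axis above 0.1 and linear below it) in border macrophages, microglia-like cells and oligodendrocytes, 1 point per library and lines at the mean of groups with more than 1 library. Border macrophages lie above microglia-like cells for the chain genes and Cd74 in every library, and oligodendrocytes lie lowest for these 4 genes.

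Summed per library and class, with the library as a block, all 5 members passed edgeR's quasi-likelihood test (adjusted p under 0.05) as higher in border macrophages, as did 9.75% of the 10125 genes tested. H2-Aa was 49.6-fold higher (log2 fold change 5.63, SE 0.26, n = 8 libraries; edgeR, Benjamini-Hochberg adjusted p = 4.3e-12). H2-Ab1 was 31.8-fold (log2 4.99, SE 0.26) and H2-Eb1 66.7-fold higher (log2 6.06, SE 0.31). Cd74 was 20.2-fold higher (log2 4.34, SE 0.28, edgeR adjusted p = 1.0e-09), and Ciita had a log2 fold change of 6.80 (SE 0.55, edgeR adjusted p = 4.8e-08). Ciita had only 0 to 7 UMIs a library in microglia-like cells and entered the test through border macrophages, where it was high. Its call is thus a description and no support. The members' median log2 fold change was 5.63, against -0.034 over all genes tested.

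The size of this difference depended on which border cells were counted. Leaving out border cells that the authors named as another type or that passed another gate kept 92 cells. The oligodendrocyte gate was not counted in this rule, so cells that passed it were kept, here and wherever the rule is used below. The log2 fold changes were then 3.16 for H2-Aa, 2.29 for H2-Ab1, 3.51 for H2-Eb1 and 1.92 for Cd74. Each still passed the edgeR test, while Ciita was too low to be tested. A gate of 10 UMIs gave 5.03, 4.52, 5.13, 4.04 and, for Ciita, 5.91.

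Border macrophages were compared among themselves by their chain UMIs, as a description without a test because the chain genes themselves made the split. Ciita was detected in 42.1% of the 107 class II-high cells, 5.19% of the 77 cells with 1 to 9 chain UMIs and 0.559% of the 179 with none. The median UMIs per cell in these 3 sets were 7271, 9099 and 4143. H2-DMb1, a chain of the H2-DM molecule that exchanges the invariant chain peptide for antigen, was detected in 90.7%, 59.7% and 30.7%, and its partner H2-DMa in 91.6%, 83.1% and 35.8%. Mrc1, a mannose receptor of macrophages that was part of the gate, was found in 88.8%, 61.0% and 60.9%, although its level was 1089, 870 and 1227 CPM, highest in the cells without chain UMIs.

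Genes of other macrophage states also differed between these sets. Ccr2, a chemokine receptor that marks cells derived from blood monocytes, was detected in 31.8% of class II-high cells (34 of 107), 2.60% of those with 1 to 9 chain UMIs and 1.68% of those with none. Lyve1, a hyaluronan receptor of one population of border macrophages, went the other way, with 5.61%, 23.4% and 20.7%, and the folate receptor gene Folr2 was at 19.6%, 39.0% and 25.7%. Of the other border markers F13a1 was highest in class II-high cells, at 66.4%, 57.1% and 57.0%, as was Dab2, at 83.2%, 66.2% and 61.5%, whereas Cbr2 was lowest there, at 28.0%, 50.6% and 40.2%. Of the class II-high cells 29 passed the monocyte gate, against 0 and 1 in the other sets, and 85 passed the microglia gate, against 60 and 95. Cd163 was detected in these 3 sets in 30.8%, 27.3% and 32.4%.

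Within border macrophages the genes whose counts per cell were most like those of the chain genes were listed by the mean of Spearman's rho over the 6 libraries with at least 20 such cells (337 cells), among 4514 genes. Cd74 was first with 0.828, from 0.669 to 0.95 over the libraries. H2-DMa (0.632) and H2-DMb1 (0.597), the peptide editor, came next, then Mgl2 (0.468), a lectin of dendritic cells and macrophages, and Coro1a (0.419), an actin regulator of leukocytes. At the other end were the ferritin light chain gene Ftl1 (-0.329), the ferritin heavy chain gene Fth1 (-0.271) and the lysosomal protease gene Ctsd (-0.260). Of the gate genes Mrc1 was at 0.048, Pf4 at -0.194 and Ms4a7 at -0.066. These correlations are across cells that share a library and differ in depth, and they carry no test.

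In WM, Ciita was higher in Rag1-/- than in wild-type border macrophages. It was at 39.4, 58.8 and 71.7 CPM (56.7 ± 16.3, SD, n = 3 libraries) against 0 and 12.3 CPM (6.15 ± 8.70, SD, n = 2), from 26, 9 and 23 UMIs against 0 and 8, so the groups did not overlap. Its log2 fold change was 2.59 (SE 0.62, edgeR quasi-likelihood test, Benjamini-Hochberg adjusted p = 0.0318), 6.03-fold. Ciita came past the filter on low counts only through the Rag1-/- libraries, where it was high, so this call is a description and no support. Of the 7614 genes tested, 0.683% passed as higher, and 9.17% had CPM values that did not overlap and were higher. Ciita was the 1 member of 5 that passed. The call was lost with DESeq2 (adjusted p = 0.368) and a gate of 10 UMIs (0.646), and without Rag1-/- GM 1 (0.0779), Rag1-/- WM 2 (0.0703), Rag1-/- WM 3 (0.234) or wild-type WM 1 (0.0607) in the edgeR test. It could not be fitted without wild-type WM 2, since Ciita then had no UMI in wild-type WM.

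The chain genes and Cd74 had positive fold changes in the same comparison and did not pass. H2-Aa averaged 2689 ± 1365 CPM (SD, n = 3) in Rag1-/- WM and 1138 ± 634 (SD, n = 2) in wild-type WM (log2 1.25, SE 0.50, edgeR adjusted p = 0.4995). H2-Ab1 averaged 2776 ± 1599.6 and 1006 ± 549 CPM (log2 1.48, SE 0.50, edgeR adjusted p = 0.263), H2-Eb1 2593 ± 1452 and 844 ± 527 CPM (log2 1.63, SE 0.53, edgeR adjusted p = 0.222), and Cd74 6815 ± 3783 and 2611 ± 1962 CPM (log2 1.37, SE 0.55, edgeR adjusted p = 0.517). For all 4 the groups overlapped, since Rag1-/- WM 3 was below wild-type WM 1. The share of border cells that also passed the microglia gate was 76.9% and 81.6% in wild-type WM and 77.9%, 31.4% and 55.6% in Rag1-/- WM, where WM 2, with the lowest, had the highest chain gene levels of the WM libraries. Its part in the fold changes was not tested. The members' median log2 fold change was 1.48 against -0.0069 over all genes tested.

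With batch as a block within genotype, all 5 members passed the edgeR test in this comparison, beside 1.17% of all genes as higher. The batches of the genotypes are different experiments, so this block pairs no library across genotypes and takes the spread between batches out of the error, and its p-values are too small for a comparison that lies between batches. The blocked log2 fold changes were 1.40 for H2-Aa (edgeR adjusted p = 0.0023), 1.55 for H2-Ab1 (0.000429), 1.82 for H2-Eb1 (1.3e-05), 1.64 for Cd74 (0.000537) and 2.95 for Ciita (0.0043). All 5 also passed without both wild-type libraries of batch 1, beside 1.35% of all genes as higher, with Cd74 at 2.61 and Ciita at 2.29. That alternative was added after the data had been seen and left 1 wild-type WM and 1 wild-type GM library, so its spread comes from the Rag1-/- WM libraries alone and wild-type WM 2 is assumed to vary like them. Restricted to border cells with no other name or gate, the log2 fold change was 0.023 for H2-Aa and 0.36 for Cd74, and none of the members passed. That fit rests on 3 and 6 wild-type WM cells and on 12, 20 and 17 Rag1-/- WM cells. The adjusted p over all alternatives ran from 0.0023 to 1.0 for H2-Aa and from 0.0043 to 0.646 for Ciita.

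**Figure D3:**
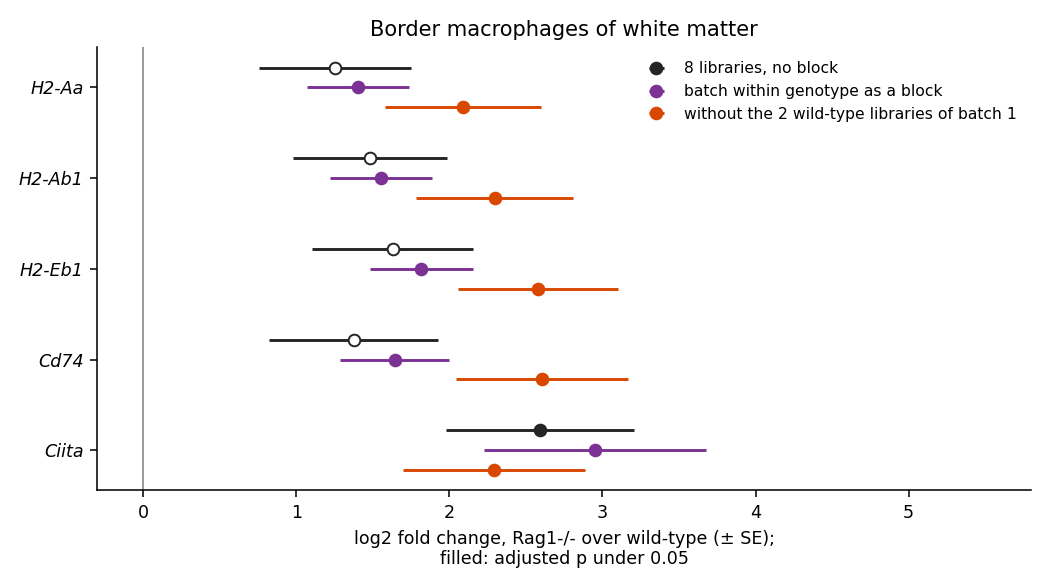
Log2 fold change of each member in white matter border macrophages, Rag1-/- over wild-type, with its standard error, in the edgeR fit, with the batch block and without both wild-type libraries of batch 1. Every value drawn lies above 0, and Ciita is the only member past the test in the first fit. The batch block takes the spread between batches out of the error, and the last fit holds 1 wild-type white matter library. Fits with DESeq2, with a higher UMI gate and without cells of another name or gate are not drawn, and no member passed in them. The fit without the filter on low counts, where some members passed, is not drawn either.

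The share of border cells with any chain UMI did not follow the CPM. It was 38.5% and 40.4% in wild-type GM, 61.5% and 55.3% in wild-type WM, 59.7% in Rag1-/- GM, and 63.2%, 31.4% and 33.3% in Rag1-/- WM. Border cells of Rag1-/- libraries had a median of 2985 to 6034 UMIs against 2622 to 14943.5 in wild-type. With each cell thinned to 2000 UMIs, leaving out 36 shallower cells, the WM shares were 40.5% ± 12.1 (SD, n = 3) in Rag1-/- and 39.0% ± 15.4 (SD, n = 2) in wild-type libraries (exact permutation test, p = 0.8, two-sided as 2 times the smaller one-sided p, where the design allows no p below 0.2). The cells left out were mostly Rag1-/-. Kept were 86 of 95, 20 of 35 and 35 of 45 cells in Rag1-/- WM 1, 2 and 3, and 13 of 13 and 36 of 38 in wild-type WM 1 and 2. In Rag1-/- WM 2 the share was 39.2% of the kept cells after thinning and 31.4% of all cells before it. The thinned comparison thus also holds this unequal loss of cells. Class II-high cells made up 23.1% and 21.2% of border cells in wild-type GM, 30.8% and 15.8% in wild-type WM, 40.3% in Rag1-/- GM, and 40.0%, 20% and 20% in Rag1-/- WM, with overlap.

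Between WM and GM no member passed in border macrophages of either genotype. In wild-type the log2 fold changes of WM over GM were -0.087 for H2-Aa, -0.090 for H2-Ab1, -0.36 for H2-Eb1, -0.078 for Cd74 and -0.78 for Ciita, with 1.68% of all genes past the edgeR test and 0 members at an unadjusted p under 0.05. In Rag1-/-, with 1 GM library, they were -0.90, -0.68, -0.86, -0.64 and -0.45, with 1.06% of all genes past the test and again 0 members at an unadjusted p under 0.05. DESeq2 also called 0 members in both. These directions were not stable. Without cells of another name or gate the chain genes and Cd74 turned to 4.39, 3.40, 4.23 and 2.69 in wild-type, from only 6 and 9 GM and 3 and 6 WM cells. In Rag1-/- they turned to 2.62, 2.38, 3.03 and 2.11, from 19 GM cells and 12, 20 and 17 WM cells. In wild-type the chain genes and Cd74 were also positive with a gate of 10 UMIs.

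In microglia-like cells Cd74 was found in more cells of WM than of GM. It was detected in 17.3% (95% Clopper-Pearson interval 12.1 to 23.5) and 16.6% (13 to 20.6) of wild-type GM cells, and in 57.6% (50.5 to 64.4) and 47.4% (43.0 to 51.9) of wild-type WM cells. In Rag1-/- libraries it was detected in 12% (10.5 to 13.5) of GM cells and in 39.6% (38.0 to 41.2), 38.4% (34.6 to 42.2) and 29.3% (26.9 to 31.8) of WM cells. Every WM library was above every GM library, and the numbers of cells in the microglia clusters, given further on for Rag1-/-, differed between the tissues too. These intervals cover counting error within a library only.

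Thinned to 2000 UMIs a cell, Cd74 was detected in 9.65% and 5.19% of wild-type GM cells (7.42% ± 3.16, SD, n = 2) and 34.6% and 20.9% of wild-type WM cells (27.7% ± 9.68, SD, n = 2). It was detected in 5.21% of Rag1-/- GM cells and in 20.3%, 21.4% and 16.6% of Rag1-/- WM cells (19.5% ± 2.49, SD, n = 3). The tissues again did not overlap, whereas the genotypes did in WM, which they had not before thinning. Over the 12111 genes tested, the share of cells separated the tissues in this direction for 2.81% without thinning and 5.29% with it. For comparison, the thinned Cd74 share of oligodendrocytes, which carry little of it, was 1.33% and 0.122% in wild-type GM, 2.31% and 0.148% in wild-type WM, 0.430% in Rag1-/- GM, and 0.465%, 0.176% and 0.270% in Rag1-/- WM. Without thinning it reached 12.8% in wild-type WM 1 and 5.99% in wild-type GM 1. In each library the share in microglia-like cells was higher.

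The level of Cd74 in microglia-like cells, in contrast with its share of cells, overlapped between tissues, at 317 and 72.9 CPM in wild-type GM against 459.6 and 201 in WM. Within each pool of mice WM was above GM, from 317 to 459.6 and from 72.9 to 201 in wild-type and from 231 to 262 in Rag1-/-. For how many genes this held was not counted. The main fit did not pair these libraries, so its error holds the spread between pools. In that fit the log2 fold change of Cd74, WM over GM, was 1.08 in wild-type (SE 0.59, edgeR adjusted p = 0.348). It was 0.35 in Rag1-/- (SE 0.66, 1 GM library), and 0 of the 5 members passed in either, beside 5.05% and 1.13% of the 12111 genes. With the batch block, which pairs the tissues of a wild-type batch, Cd74 passed in wild-type with a log2 fold change of 1.26 (SE 0.25, edgeR adjusted p = 0.0337), beside 4.28% of all genes as higher. Among Rag1-/- cells with the authors' microglia names, 7421 in all, it passed with 2.04 (SE 0.26, edgeR adjusted p = 0.0089), beside 2.85% of all genes as higher. That fit set 3 WM libraries against 1 GM library, so its error is the spread of the WM libraries. The GM library is assumed to vary like them. The names were made from the genes of these same cells, and the value moved with the choice of cells, from 0.35 with the gate. Its call is thus a description and no support.

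A few class II-high cells held much of the level in each library. They numbered 6 and 3 in wild-type GM, 5 and 6 in wild-type WM, 14 in Rag1-/- GM, and 30, 11 and 13 in Rag1-/- WM, and together held 47.2% of the Cd74 and 77.3% of the chain UMIs of the 8746 cells. Among the other cells Cd74 was at 53.3 and 36.0 CPM in wild-type GM, 287 and 151 in wild-type WM, 27.8 in Rag1-/- GM, and 166, 176 and 143 in Rag1-/- WM, so the tissues did not overlap, as for 5.91% of the genes tested. The chain genes together were in those cells at 46.5, 19.9, 72.8, 37.2, 21.8, 33.5, 37.3 and 33.5 CPM in the same order, which overlapped. Whether the class II-high cells are microglia or other macrophages with microglial RNA was not tested.

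The chain genes did not pass between tissues in microglia-like cells. WM over GM, the log2 fold changes in wild-type were 0.13 for H2-Aa, 0.22 for H2-Ab1 and -0.055 for H2-Eb1, and in Rag1-/- -1.38, -0.93 and -2.32, with H2-Eb1 at an unadjusted edgeR p of 0.0321 (adjusted p = 0.324). The Rag1-/- values rest on 1 GM library with 14 class II-high cells, and they turned positive without class II-high cells (0.99, 0.89 and 0.34) and with the authors' names (0.31, 0.82 and 0.073). In WM, Rag1-/- against wild-type gave -0.60 for H2-Aa, -0.40 for H2-Ab1, -0.70 for H2-Eb1 and -0.34 for Cd74, with 0 members past the edgeR test, 0 at an unadjusted p under 0.05 and 0 with DESeq2, beside 0.842% of all genes past the test. The share of WM microglia-like cells with any chain UMI, thinned to 2000 UMIs, was 6.67% ± 0.723 (SD, n = 3) in Rag1-/- and 10.9% ± 3.89 (SD, n = 2) in wild-type libraries. The difference was -4.23 percentage points (exact permutation test, p = 0.2 by the same rule, which is the lowest it can give here).

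The authors' names divide the Rag1-/- microglia into 2 homeostatic clusters, white matter-associated microglia (WAM), interferon-responsive microglia (IRM) and activated microglia. As the clusters were made from the genes of these same cells, their levels are a description with no test. The tissues held them in different numbers, with 1634 cells of the first homeostatic cluster, 29 of the second and 27 WAM cells in GM against 1610, 2568 and 1153 in the 3 WM libraries together. The part of these numbers in the Cd74 share of all microglia-like cells was not tested. Thinned to 2000 UMIs, Cd74 was detected in 24.1% of WAM cells in GM 1 and in 38.7%, 48.3% and 40.3% in WM 1, 2 and 3. The IRM shares were 31.8%, 27.7%, 31.1% and 31.2%, from 9 to 37 cells a library. The first homeostatic cluster had the lowest, at 4.18% in GM against 5.14%, 8.37% and 4.29% in WM.

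The second homeostatic cluster lay between, at 10.1%, 20.4%, 21.8% and 23.1%, and the activated cluster at 14.2%, 22.9%, 30.5% and 25.9%, above the second homeostatic cluster in each of the 4 libraries. In the WM libraries WAM was above every other cluster in each library. Any chain UMI was found, thinned, in 17.0%, 13.4%, 21.5% and 19.2% of WAM cells and in 4.18%, 2.72%, 5.51% and 2.82% of the first homeostatic cluster. Of the 66 class II-high cells with a microglia name, 58 were WAM, which is 4.92% of 1180 WAM cells, 5 were IRM, which is 6.76% of 74, 2 and 1 were of the homeostatic clusters, and none was activated. The border gate took 47 WAM and 2 IRM cells, and 4 of the class II-high WAM cells and 2 of the class II-high IRM cells were among them. The 5 IRM cells are too few to rank the shares of these 2 clusters.

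**Figure D4:**
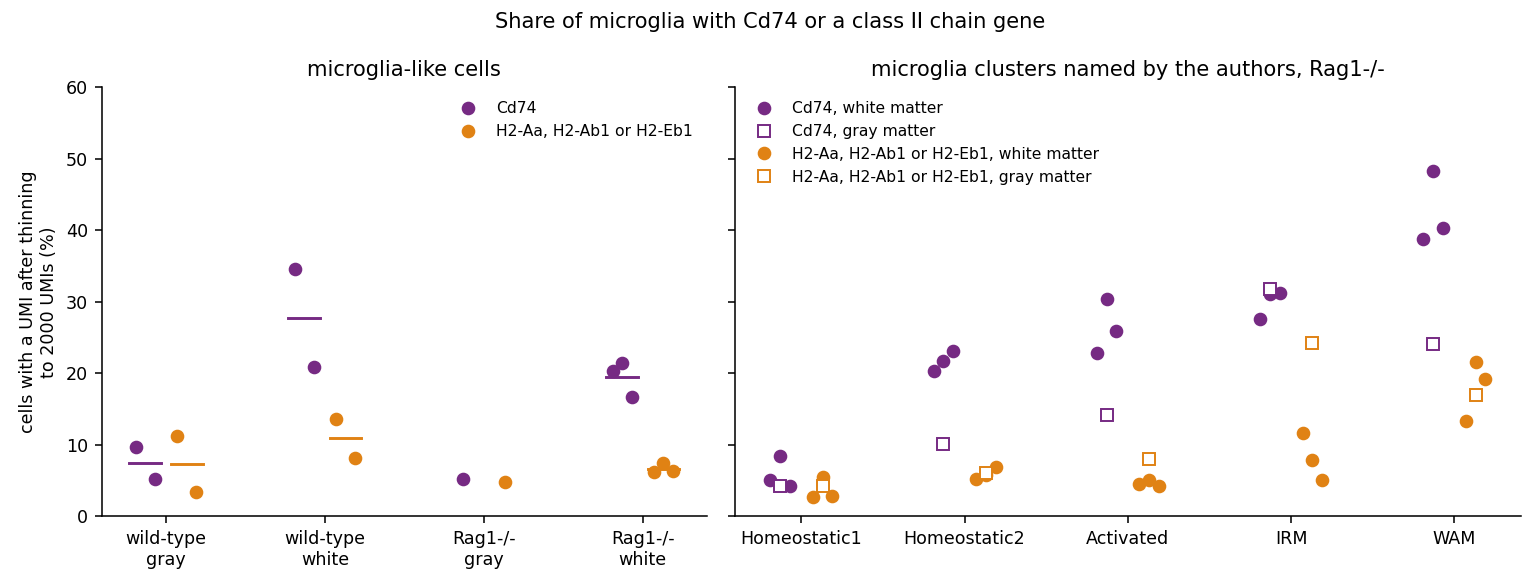
Percent of cells with a UMI of Cd74, or of any chain gene, after thinning to 2000 UMIs, 1 point per library with lines at group means, in microglia-like cells of the 8 libraries (left) and in the authors' clusters of the Rag1-/- libraries (right). For Cd74 in microglia-like cells every white matter library lies above every gray matter library, and the first homeostatic cluster (Homeostatic1) lies at 4.18 to 8.37%.

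Cd74 was more often found without the chain genes in microglia-like cells than in border macrophages. Of the cells with Cd74, 1998 (72.2%) of the microglia-like cells had no chain UMI, against 49 (22.3%) of the border macrophages and 263 (95.3%) of the oligodendrocytes. These shares move with the level of the chain genes. Among cells that were not class II-high, the number of Cd74 UMIs per 100 chain UMIs in microglia-like cells was 115 and 181 in wild-type GM and 395 and 407 in wild-type WM. In Rag1-/- libraries it was 128 in GM and 497, 471 and 427 in WM. All 5 WM libraries were thus above the 3 GM libraries. For how many other genes in place of Cd74 this held was not counted, here or with all cells kept. Leaving out cells by their chain UMIs itself raises the ratio of Cd74 to chain UMIs, which was 172 over all microglia-like cells and 400.2 over those not class II-high. With all cells kept it was 107 and 114 in wild-type GM, 186 and 285 in wild-type WM, 74.1 in Rag1-/- GM, and 261, 246 and 265 in Rag1-/- WM, and the tissues did not overlap either. In border macrophages that were not class II-high it was 167 and 137 in wild-type GM, 246 and 332 in wild-type WM, 248 in Rag1-/- GM, and 260, 233 and 206 in Rag1-/- WM. These rest on only 9, 27, 13, 34, 27, 57, 9 and 16 chain UMIs in the same order, too few to rank the libraries or to set them against microglia-like cells. With all border macrophages kept it was 82.0, 81.7, 95.2, 68.7, 74.7, 84.7, 85.2 and 82.1 in the same order, and the tissues overlapped. In oligodendrocytes it was 37.7 to 98.5 over the 8 libraries, and in class II-high cells 105 for microglia-like cells and 78.7 for border macrophages. The counts are of 3′ tags and of trimmed cells, so the ratio is compared between cells and is no ratio of transcripts.

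**Figure D5:**
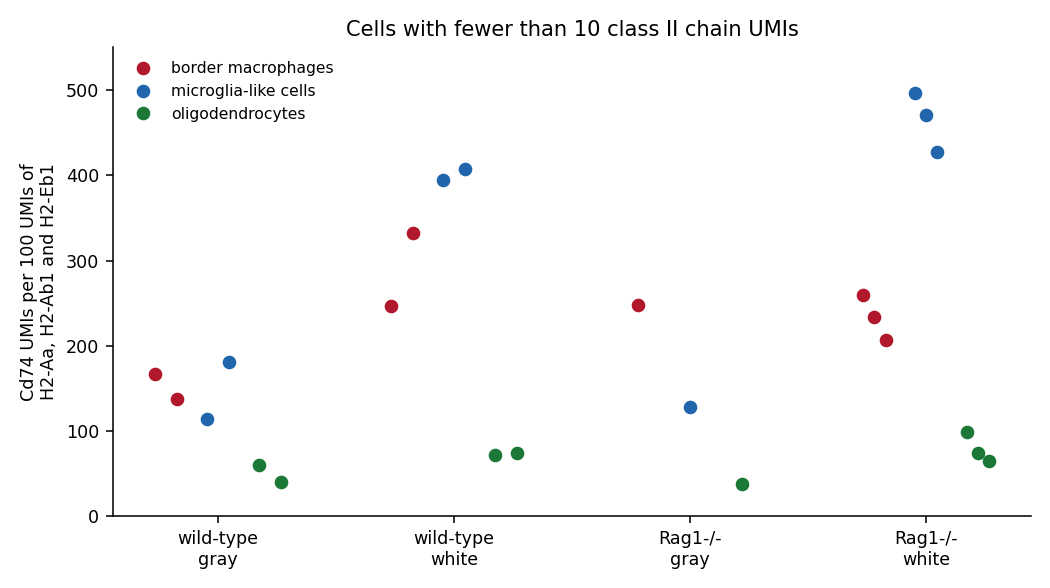
Cd74 UMIs per 100 chain UMIs (vertical axis) in cells that are not class II-high, 1 point per library, for border macrophages, microglia-like cells and oligodendrocytes. In microglia-like cells the gray matter libraries lie at 115 to 181 and the white matter libraries at 395 to 497.

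Oligodendrocytes, the myelin-forming cells, had the lowest levels of the chain genes and Cd74 of the 3 classes, and the libraries of wild-type batch 1 had the highest of these. Cd74 was at 6.10 and 0.633 CPM in wild-type GM, 11.4 and 0.700 in wild-type WM, 2.38 in Rag1-/- GM, and 2.36, 0.892 and 1.33 in Rag1-/- WM. Both libraries of wild-type batch 1 were above the other 6, as for 11.5% of the genes tested. H2-Ab1 was at 4.31, 0.237, 7.94 and 0.452 CPM in the wild-type libraries in the same order and at 2.27, 0.931, 0.524 and 0.999 in the Rag1-/- libraries, with the same batch highest. Its microglia-like level in wild-type batch 1 was also the highest of the wild-type libraries, at 119.8 and 96.6 CPM, and the part of free RNA in the oligodendrocyte values was not tested.

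H2-Aa (0.316 to 4.3 CPM) and H2-Eb1 (0.181 to 3.64 CPM) were likewise highest in wild-type batch 1. None of the 4 members that could be tested passed in any of the 3 comparisons, where 0.902%, 0.378% and 0.878% of the 12978 genes did, and 0 had an unadjusted edgeR p under 0.05 or passed with DESeq2. The fold changes of WM, Rag1-/- over wild-type, were -2.02 for H2-Aa, -2.11 for H2-Ab1, -1.31 for H2-Eb1 and -1.76 for Cd74 on the log2 scale, and became 0.62, 0.94, 1.79 and 1.19 without both wild-type libraries of batch 1. Ciita had 0 to 5 UMIs per library and was not tested.

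Interferon-responsive oligodendrocytes (IRO) are a cluster named by the authors, and class II genes are known to respond to type II interferon in other cells. Cd74 was detected in 17.2% of 29 IRO cells of wild-type WM 1 and 0.813% of 123 of WM 2, and in 2.56% of 39, 0 of 17 and 0 of 33 IRO cells in Rag1-/- WM 1, 2 and 3. In the clusters named Oligo1a to Oligo1c and Oligo2a to Oligo2c, it was found in 8.33 to 15.6% of cells of wild-type WM 1 and in 0.270 to 1.22% of those of WM 2. The IRO share thus lay above that range in WM 1, from 5 cells with Cd74, and inside it in WM 2. Age-related oligodendrocytes had it in 15.0% and 1.24% in wild-type and 2.38%, 1.87% and 1.01% in Rag1-/- WM.

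With the cells of all 8 libraries pooled, Ciita was found in 13.8% of border cells (95% Clopper-Pearson interval 10.4 to 17.8) and 0.217% of microglia-like cells. By library the border share ran from 0% in wild-type WM 1 to 17.1% in Rag1-/- WM 2. The intervals in this paragraph treat pooled cells as independent and do not cover the spread between libraries. Among the smaller classes it was found in 9 of 77 monocytes (11.7%, interval 5.49 to 21.0) in both dendritic cells, in 3 of 86 NK cells (3.49%), and in 1 cell each of the 4 B cells, 50 oligodendrocyte precursor cells, 1671 astrocytes and 426 neuroblasts. Cells of no class held 109 Ciita UMIs in 42 cells. Of the microglia-like cells 19 had it, 9 of them with all 3 chain genes, as did 10 oligodendrocytes, 0 of which had all 3. Wild-type WM had 0 UMIs in 711 microglia-like cells. Taking 3 cells in 711 as a floor, this allows up to 0.422% of cells to hold a UMI at this depth. It says nothing of cells that express the gene below it. Rag1-/- WM had 13 UMIs in 5668 cells, and no fold is given. None of 280 T cells, 90 endothelial cells and 28 mural cells had a Ciita UMI. The upper limits of the 95% Clopper-Pearson intervals for cells with a UMI were 1.31%, 4.02% and 12.3%.

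The other genes of the pathway were taken from 4 lists of 27 genes. Among 5 tested genes of peptide loading and editing, 1 was higher and 1 lower in border macrophages than in microglia-like cells (median log2 fold change 0.28). H2-DMb1 rose by 0.90 (SE 0.22, edgeR adjusted p = 0.00635), and H2-Oa, a chain of the H2-O molecule that restrains H2-DM, fell by 1.44 on the log2 scale (SE 0.25, edgeR adjusted p = 0.000401). Of 5 endosomal proteases, which cut antigen and the invariant chain, 4 were lower and 1 higher (median -0.71), beside 7.07% of all genes tested as lower and 9.75% as higher, among them Ctss, the protease of the last step of invariant chain removal, at -0.71 and Ctsb at 0.48. Of 10 genes of class II transcription, 1 passed, Irf8 at -0.49, and the Rfx5, Rfxap, Rfxank and Nfya, Nfyb and Nfyc genes, whose proteins bind the X and Y boxes, ranged from -0.49 to -0.11 and did not pass.

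Of 5 genes of turnover and costimulation, Cd40, a receptor that T cells engage, was higher by 3.01 (SE 0.60, edgeR adjusted p = 0.00131). Like Ciita, Cd40 had no fit without the library block, so it lay at the edge of the filter on low counts. Its call in the class where it was high is a description and no support. Cd86 (-0.51) and March1 (-0.51), a ligase that removes class II from the surface, were lower. In the WM genotype comparison of border macrophages none of these 4 lists had a gene past the test, and the medians were 0.74, -0.42, -0.25 and -0.23 against -0.0069 over all genes. H2-DMb1 had a log2 fold change of 1.01 and H2-DMa of 0.74 there. In that fit Ciita was the only one of the members and listed pathway genes that passed, which did not hold in the alternatives given above. How Ciita came past the filter on low counts is given there too.

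Over 53 sums of UMIs by library and class, from 11 classes with at least 10 cells, the genes whose log CPM was most like the mean of the chain genes and Cd74 were listed among 14873 genes by Pearson's r. They were Cd36 (0.936) and Msr1 (0.910), scavenger receptors of macrophages, H2-DMb1 (0.898), Clec4a1 (0.891), Ifi207 (0.884), Ticam2 (0.884) and Mgl2 (0.879). Ms4a7 (0.875) and Mrc1 (0.873), which are genes of the border gate, followed. Ciita was at 0.743, in place 189. The sums share libraries and depth, and the values are a description.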

How the data were processed

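Single-cell libraries (droplet 3′ chemistry, cells sorted as SYTOX Blue-negative) were made by the authors from pooled tissue pieces, and the deposited tables hold raw UMI counts per gene and cell. The authors aligned with Cell Ranger, version 4 per the labels (the methods name several versions), to mm10, and kept cells with at least 200 genes, at most 10% mitochondrial UMIs and UMI limits that differed between experiments. The counts were used as deposited, without rounding, and 8171 cells of 4 libraries belonging to another series were not used. The cells were placed in classes by gates of 5 UMIs on marker lists, except oligodendrocytes, which were taken by the authors' names, as were the microglia clusters. A barcode may hold more than 1 cell, and no doublet caller was run. UMIs were summed per library and class and tested with the edgeR 4.0.16 quasi-likelihood test (TMM scaling, filterByExpr, 4 groups, R 4.3.3) and Benjamini-Hochberg adjustment over all genes tested, with an adjusted p threshold of 0.05. DESeq2 1.42.0, other gates, no filter, a batch block and leaving out libraries were alternatives. The script was tested on simulated data. Wild-type GM and WM libraries of a batch came from the same mice. The correlation of their deviations was r = 0.122 in border macrophages, 0.108 in microglia-like cells and 0.413 in oligodendrocytes. With 2 libraries a group the deviations are mirror images, so these values cannot show whether the samples are paired. The main fits between tissues left the pairing out, and the batch block used it. Shares of cells were compared after thinning each cell to 2000 UMIs and by exact permutation tests over libraries. Depth was 4645054 to 57899352 UMIs a library, and intervals cover counting error only. Promoter letters came from a RefSeq table. Genes named outside the members came from the pathway and marker lists, and from the likeness rule (the highest and lowest by correlation). The members, the lists and the gates were chosen with earlier results of these data known.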

Additional observations from a re-analysis of the deposited data

Results flagged for a closer look

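The data outside the named classes also held class II UMIs. Of the 2427 cells of no class, 71 were class II-high, and they held 97.8% of the 14706 chain UMIs of those cells. Of these 71 cells, 43 passed the oligodendrocyte gate, 43 the monocyte gate, 34 the microglia gate and 20 the dendritic gate, while 17 passed no gate but that of oligodendrocytes. B-cell, astrocyte, endothelial and T-cell gates were passed by 8, 4, 3 and 2. No comparison between groups used these cells, and the part of mixed droplets in them was not tested.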

How the results depend on the processing

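With the other settings, single-gene fold changes kept their direction and side of the threshold in 274 of the comparisons that did not leave out a library, were reversed in 32, passed only with the alternative in 14 and lost the test in 2. Leaving out 1 library, 309 were unchanged, 31 reversed, 3 passed newly and 4 were lost. The cause was not tested for any of them.

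In WM border macrophages, Rag1-/- against wild-type, the number of members past the test was 1, and became 0 with DESeq2, 0 with a gate of 10 UMIs, 0 without cells of another name or gate, 3 without the filter on low counts, 5 with the replicate block and 5 without both wild-type libraries of batch 1 (added after seeing the data). Leaving out 1 library gave 0 to 3. In microglia-like cells, WM against GM, the count rose from 0 to 1 (Cd74) in wild-type with the replicate block and in both genotypes without class II-high cells, an alternative added after seeing the data that trims cells by the members' own counts. It rose to 1 in Rag1-/- with the authors' names. The replicate block changed no other call of a member. In border macrophages of wild-type, WM over GM turned positive with a gate of 10 UMIs (H2-Aa 0.71, H2-Ab1 1.11, H2-Eb1 0.88, Cd74 0.77) and without cells of another name or gate (4.39, 3.40, 4.23, 2.69). In Rag1-/- the latter gave 2.62, 2.38, 3.03 and 2.11. The fits without cells of another name or gate rest on the few cells a library given above.

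In microglia-like cells of wild-type, WM over GM for H2-Eb1 became 0.032 with DESeq2, 0.20 with a gate of 3 UMIs and 0.99 without class II-high cells. In Rag1-/- H2-Aa became 0.31 with the authors' names and 0.99 without class II-high cells, H2-Ab1 0.010 with a gate of 3 UMIs, 0.82 and 0.89, H2-Eb1 0.073 and 0.34, and Ciita 0.0086 with DESeq2. Without both wild-type libraries of batch 1, Rag1-/- against wild-type WM became 0.60, 0.32, 1.76 and 0.45 in microglia-like cells (H2-Aa, H2-Ab1, H2-Eb1, Cd74) and 0.62, 0.94, 1.79 and 1.19 in oligodendrocytes, and H2-Aa in wild-type oligodendrocytes, WM over GM, -1.0. The border share of cells with a chain UMI differed by -15.8 points without thinning.

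Leaving out each library in turn, wild-type WM over GM ranged in border macrophages from -0.94 to 0.73 for H2-Aa, -0.92 to 0.66 for H2-Ab1, -1.32 to 0.52 for H2-Eb1 and -1.32 to 0.77 for Cd74. In microglia-like cells the ranges were -1.05 to 1.44, -0.57 to 1.38 and -2.51 to 1.58 for the chain genes, and in oligodendrocytes -1.80 to 1.95, -1.82 to 3.91, -3.21 to 1.11 and, for Cd74, -1.86 to 3.07. Rag1-/- WM against GM in microglia-like cells had Ciita from -0.36 to 0.19. For WM, Rag1-/- against wild-type, the ranges were -1.45 to 0.60, -1.02 to 0.32, -1.88 to 1.76 and -0.89 to 0.45 in microglia-like cells, and -3.11 to 0.62, -3.17 to 0.93, -2.49 to 1.78 and -2.82 to 1.18 in oligodendrocytes. The differences in share ranged from -9.36 to 12.5 points in border macrophages and -2.75 to 0.17 in oligodendrocytes. Without Rag1-/- GM 1 no Rag1-/- comparison of tissues can be made. Few border cells (13 in 2 libraries) and low oligodendrocyte counts limit precision.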

Other observations

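In wild-type microglia-like cells, 5 of the 25 tested genes of the pathway lists were higher in WM than in GM and 0 were lower. H2-DMa, a chain of the peptide editor, had a log2 fold change of 0.60 (edgeR, Benjamini-Hochberg adjusted p = 0.0385), and H2-Ob, a chain of its inhibitor, 0.88 (0.020). Of the 5 endosomal proteases 3 passed, Ctsb at 0.92 (0.0166), Ctsl at 0.89 (0.0349) and Ctsd at 0.77 (0.0361). None of the 10 genes of class II transcription passed, and none of the 5 genes of turnover and costimulation did. These are counts over the listed genes, beside 5.05% of all genes tested.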
